A study of Caenorhabditis elegans with 12 samples.

Results

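The genes described here are 7 genes from a short stretch of the left part of chromosome V of Caenorhabditis elegans, out of 23515 genes in the deposited table: C36C5.5, T28A11.6, F35F10.5, C04E12.2, T20D4.12, T20D4.11 and T20D4.10. They were chosen by name, with the values of all 12 libraries in view, because most of them differed in the unc-120(st364) larvae. T20D4.11 was taken along as a neighbour that did not. The differences of these 7 genes between the groups are therefore given as descriptions with no test. The other genes of the same stretch were not picked, and those were tested. The ends of the stretch were set by the 7 genes, so its place does depend on these values.

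Messenger RNA was measured in whole larvae of the third larval stage, grown from embryos at 15 °C on plates with E. coli as food, in stranded polyA libraries. There were 3 groups of 4 libraries each. The first was the N2 wild type. The second was strain RW364, which carries unc-120(st364), an allele of the gene that encodes serum response factor in this worm, which regulates transcription in muscle. The third was strain XA8001, which carries fhod-1(tm2363), an allele of the gene for a formin, a protein that builds actin filaments. The study asks how formin and serum response factor take part in the development of striated muscle. Each mutant group was a single strain, so the effect of its allele and that of any other difference between the strains cannot be told apart. One label, the source name, has the 2 mutant strain names swapped, and the groups follow the strain and genotype labels. The labels do not say that the 4 libraries of a group came from separate cultures, so p-values measure the spread between these libraries.

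The values are TPM-like: shares of a library scaled by gene length, with the same total of 638200 in every library. The number of reads behind a value is unknown, so no counting interval is given and the precision rests on the 4 libraries of a group. Differences on the log2 scale are differences of group means of log2(value + 1), which understate the change of genes with low values. The test took the 12831 genes that reached 1 in 4 or more of the libraries. The levels of both mutated genes were looked at beside the labels. The gene unc-120 lies on chromosome I (8460225 to 8463015, with D1081.17 on the other strand). Its level was 13.5 ± 2.81 (SD, n = 4) in wild type, 33.5 ± 8.04 in the unc-120(st364) strain and 18.8 ± 1.30 in the fhod-1(tm2363) strain. Its log2 difference between unc-120(st364) and wild type was 1.25 (SE 0.18, limma adjusted p = 0.00163). The level of fhod-1 (chromosome I, 5058251 to 5068829) was 5.63 ± 1.09, 4.47 ± 1.72 and 4.79 ± 1.48 in the same order of groups. It did not tell them apart. No expected direction is given here for the RNA of either gene, so these levels do not settle which strain is which. Both mutated genes lie on chromosome I and none of the 7 genes does.

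The arms of the autosomes of C. elegans, and chromosome V above all, are known for large families of similar genes that lie side by side, such as those for chemoreceptors, F-box proteins, lectins and glutathione transferases. Serum response factor is known in many animals for switching on genes of muscle and of the actin cytoskeleton. T20D4.11 gives its name to the T20D4.11-like domain, a domain of unknown function found in nematode proteins. No role is given here for the other 6 genes, and the Ensembl annotation lists C36C5.5 under the name exh-1. T28A11.6 is annotated as a pseudogene and the other 6 as protein coding.

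From the first to the last of the 7 genes the stretch covers 244.0 kb, 3157077 to 3401063 on chromosome V of WBcel235, and is called the interval here. C36C5.5 (WBGene00016474, 3157077 to 3157870) forms its left end. T28A11.6 (WBGene00020873, 3262571 to 3263235) follows after a gap of 104.7 kb, and F35F10.5 (WBGene00018055, 3284929 to 3285792) after another 21.7 kb. C04E12.2 (WBGene00015433, 3369081 to 3369920) lies 83.3 kb further on. T20D4.12 (WBGene00020618, 3397065 to 3397800), T20D4.11 (WBGene00020617, 3398690 to 3399640) and T20D4.10 (WBGene00020616, 3400252 to 3401063) form a row at the right end with gaps of 0.9 and 0.6 kb. All 7 lie on the plus strand, as do 48 of the 87 genes of the interval. Their exonic length ran from 331 bases for T28A11.6 to 944 bases for C04E12.2. F35F10.5 shares its first bases with the end of str-64, a chemoreceptor gene that did not exceed 0.132 in any library. Whether reads shared between similar neighbours were split among them is not given in the sources used here, so the values of adjacent genes of 1 clone are uncertain to that extent.

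The order of the 7 genes by level was another one in the unc-120(st364) libraries than in wild type. C36C5.5 had the highest mean of the 7 in wild type and the lowest in the unc-120(st364) strain. F35F10.5 had the lowest mean in wild type and the third highest in the unc-120(st364) strain. For 6 of the 7 genes the 4 unc-120(st364) libraries did not overlap the 4 wild-type libraries, 3 of them higher and 3 lower, and T20D4.11 overlapped. Across all tested genes 4.21% had no overlap between these groups, but the 7 genes were chosen on these values and nothing is read from their share. For 5 of them the means also differed by at least 1 on the log2 scale, as for 0.608% of all tested genes. In fhod-1(tm2363) against wild type, 1 of the 7 had no overlap, where the share over all tested genes was 15.5%, and 0 of the 7 also differed by 1 or more on the log2 scale, where that share was 1.34%. Between the mutant strains 6 of the 7 had no overlap, all 6 of them with a difference of 1 or more, and the shares over all tested genes were 8.24% and 0.920%. All 7 passed the filter, and each was at 1 or more in all 12 libraries.

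**Figure D1:**
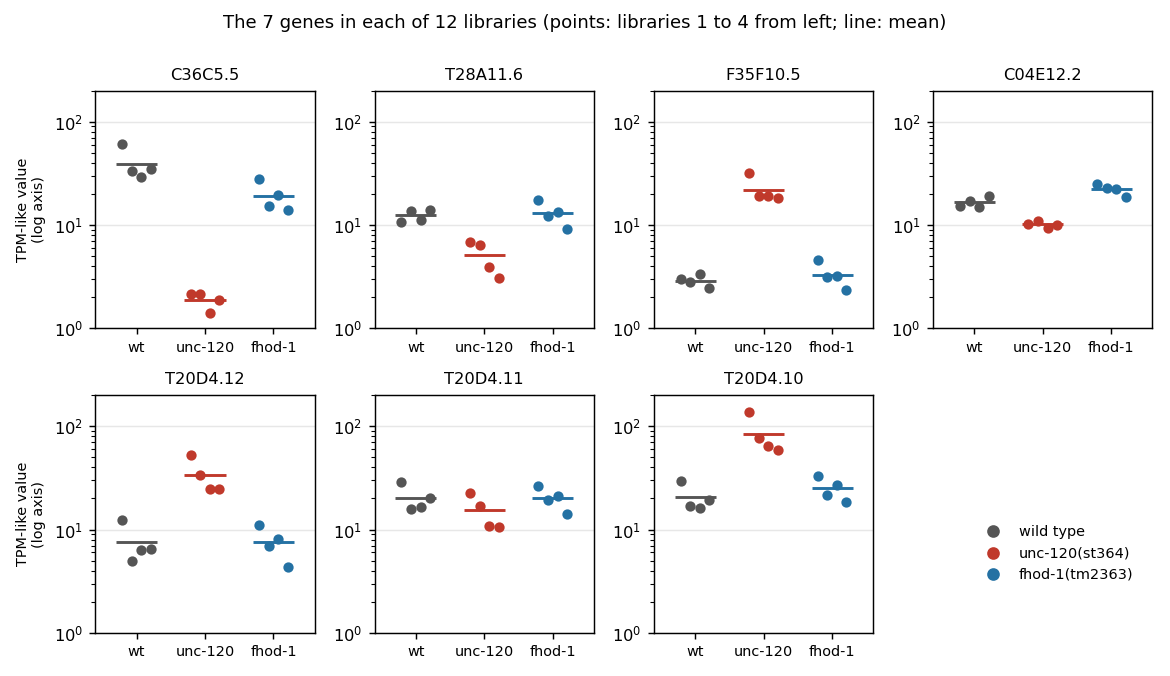
Values of the 7 genes in every library (TPM-like values, log axis, points for the 4 libraries of each group, line at the mean). C36C5.5, T28A11.6 and C04E12.2 are lower in the unc-120(st364) strain than in any wild-type library, F35F10.5, T20D4.12 and T20D4.10 are higher, and T20D4.11 overlaps between the groups.

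Of the 3 genes that were lower in the unc-120(st364) strain, C36C5.5 differed most. C36C5.5 was at 60.7, 33.05, 28.97 and 34.6 in wild-type replicates 1 to 4, at 2.12, 2.15, 1.41 and 1.89 in the unc-120(st364) strain, and at 27.9, 15.3, 19.7 and 14.07 in the fhod-1(tm2363) strain. The lowest wild-type library was 13.5-fold above the highest unc-120(st364) library. The mean went from 39.3 ± 14.4 in wild type to 1.89 ± 0.343 in the unc-120(st364) strain (SD, n = 4), 20.8-fold lower, with a log2 difference of -3.75. The fhod-1(tm2363) libraries stood between, at 19.2 ± 6.27, with a log2 difference from wild type of -0.98. There the highest fhod-1(tm2363) library and the lowest wild-type library were 1.04-fold apart, so C36C5.5 was lower in both mutant strains and much lower in the unc-120(st364) strain. Between the mutants the mean was 10.2-fold lower in the unc-120(st364) strain.

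T28A11.6, the pseudogene, was at 10.7, 13.6, 11.3 and 14.09 in wild type, at 6.88, 6.47, 3.95 and 3.04 in the unc-120(st364) strain, and at 17.6, 12.2, 13.2 and 9.11 in the fhod-1(tm2363) strain. The means were 12.4 ± 1.67, 5.08 ± 1.88 and 13.03 ± 3.52 (SD, n = 4). The unc-120(st364) mean was 2.44-fold lower than wild type, a log2 difference of -1.19, and the fhod-1(tm2363) libraries overlapped the wild type. The 4 unc-120(st364) libraries differed among themselves by more than the 4 wild-type libraries did, relative to their mean.

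C04E12.2 had the smallest difference of the 6 genes. It was at 15.1, 17.1, 14.9 and 19.08 in wild type, at 10.1, 11.05, 9.45 and 10.1 in the unc-120(st364) strain, and at 25.07, 23.03, 22.2 and 18.9 in the fhod-1(tm2363) strain. The mean was 16.5 ± 1.96 in wild type and 10.2 ± 0.661 in the unc-120(st364) strain, 1.62-fold lower, a log2 difference of -0.64. In fhod-1(tm2363) the mean of 22.3 ± 2.58 was on the other side of wild type, a log2 difference of 0.41, with 1 library of fhod-1(tm2363) inside the wild-type range. Between the mutants the log2 difference was -1.05, and the libraries did not overlap.

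The other 3 genes were higher in the unc-120(st364) strain. F35F10.5 was at 3.01, 2.80, 3.32 and 2.46 in wild type, at 31.7, 18.99, 18.95 and 18.3 in the unc-120(st364) strain, and at 4.54, 3.15, 3.23 and 2.34 in the fhod-1(tm2363) strain. The lowest unc-120(st364) library was 5.52-fold above the highest wild-type library, and fhod-1(tm2363) overlapped the wild type. The mean went from 2.90 ± 0.362 to 21.99 ± 6.46 (SD, n = 4), 7.59-fold higher, with a log2 difference of 2.53. Its level in wild type was above that of 25.7% of all tested genes and in the unc-120(st364) strain above that of 75.6%.

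T20D4.12 was at 12.5, 5.02, 6.35 and 6.55 in wild type, at 52.7, 33.8, 24.4 and 24.9 in the unc-120(st364) strain, and at 11.06, 6.96, 8.07 and 4.39 in the fhod-1(tm2363) strain. The mean of 34.0 ± 13.2 in the unc-120(st364) strain was 4.48-fold that of wild type, 7.59 ± 3.31, a log2 difference of 2.03. T20D4.10 was at 29.5, 16.9, 16.2 and 19.3 in wild type, at 137.2, 77.7, 64.8 and 58.95 in the unc-120(st364) strain, and at 33.2, 21.6, 27.09 and 18.7 in the fhod-1(tm2363) strain. In both genes every unc-120(st364) library was above every library of the other groups. The mean of T20D4.10 in the unc-120(st364) strain, 84.7 ± 35.9, was 4.13-fold that of wild type, 20.5 ± 6.16, a log2 difference of 1.95. That mean made it the most abundant of the 87 genes of the interval in the unc-120(st364) strain, and it ranked 5 in wild type.

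T20D4.11 lies between these genes on the same strand. It was at 28.8, 15.9, 16.7 and 20.3 in wild type, at 22.8, 17.0, 10.9 and 10.7 in the unc-120(st364) strain, and at 26.6, 19.3, 20.98 and 14.09 in the fhod-1(tm2363) strain. The groups overlapped throughout, with means of 20.4 ± 5.92, 15.3 ± 5.78 and 20.2 ± 5.13 (SD, n = 4). The log2 difference of -0.42 between unc-120(st364) and wild type had the sign opposite to that of its neighbours on both sides.

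Ratios of neighbouring genes within a library do not depend on how the library was scaled. The ratio of T20D4.10 to T20D4.11 was 1.00 ± 0.0527 in wild type (0.948 to 1.07), 5.52 ± 0.669 in the unc-120(st364) strain (4.57 to 6.01) and 1.25 ± 0.0924 in the fhod-1(tm2363) strain (1.11 to 1.33). The ratio of T20D4.12 to T20D4.11 was 0.363 ± 0.0547, 2.22 ± 0.159 and 0.368 ± 0.0444 in the same groups. Both ratios varied less between the libraries of a group, relative to their mean, than the levels of the genes did. In unc-120(st364) both were above 1 in every library, whereas T20D4.12 was below T20D4.11 in every library of the other groups.

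**Figure D2:**
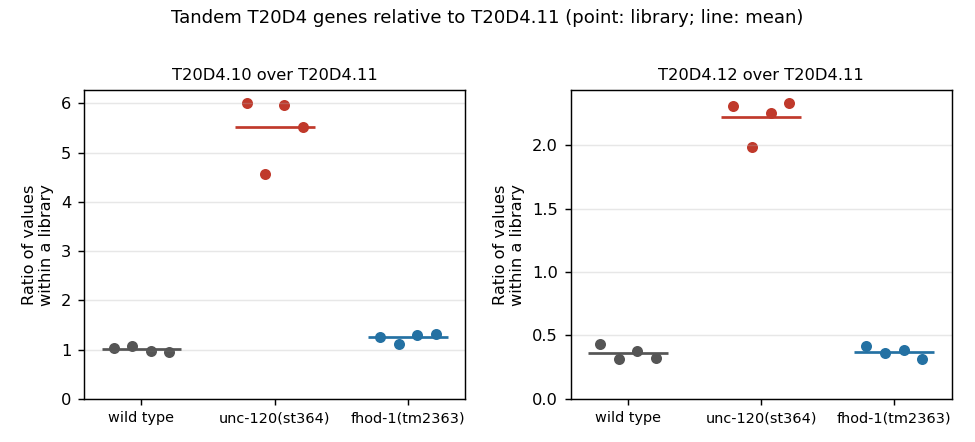
Ratio of T20D4.10 (left) and of T20D4.12 (right) to T20D4.11 within each library (linear axis from 0, points for libraries, line at the mean of 4). The unc-120(st364) libraries lie at 4.57 to 6.01 and at 1.99 to 2.33, above all libraries of the other groups.

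The 3 genes of the row also shared which library was highest. Replicate 1 had the highest value of its group for T20D4.10, T20D4.11 and T20D4.12 in all 3 groups. It was also highest in 16 of the 21 pairs of a gene and a group among the 7 genes. The share over all tested genes is not given here, so nothing is read from these counts. The titles give replicate 1 the letter K in every strain, and no label says what the letter stands for. Over the 12 libraries the log2 values of T20D4.10 and T20D4.12 had a Pearson correlation of 0.99, and T20D4.11 had -0.10 with T20D4.10 and -0.09 with T20D4.12. These correlations describe 12 libraries in which the groups differ, and they carry no test.

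The remaining genes of the interval were examined next, because they were not individually chosen for their values. The interval itself was placed by the 7 genes, which were chosen on these values. The shares below therefore do not come from a stretch chosen independently of the data. The interval held 80 genes besides the 7, of which 33 passed the filter. Among the 47 that did not, the highest value in any library was 1.61. The 18 genes of the interval named as chemoreceptors (str, srbc, srab, srx, srj and srt) were all among those 47, and none exceeded 0.279 in any library. In unc-120(st364) against wild type, 6 of the 33 were called by limma (adjusted p under 0.05), 5 higher and 1 lower, which is 18.2%, where 1.20% of all tested genes were called. Their median log2 difference was 0.14, against 0.02 for all tested genes. The 6 include T28A11.3, which passed the filter through its unc-120(st364) libraries alone. All 6 had a wild-type mean under 10, and with a filter of at least 10 in 4 libraries 8 genes of the interval were tested and limma called 0 of them (1 at an unadjusted p under 0.05). None of the 6 passed that filter, so they were left out there and not tested again. Among the 23 genes at 1 or more in every wild-type library, 5 were called (21.7%), against 1.08% of the 11491 genes of the whole table that met the same condition. In the 200 kb on either side, 22 genes passed the filter and limma called 0 of them, with 2 at an unadjusted p under 0.05. Over all tested genes 1.20% were called and 1052 of 12831 had an unadjusted p under 0.05. The left side gave 6 of these 22 genes, out of 59, and the right side 16, out of 61. With so few genes, 0 calls do not set the flanks apart from all tested genes. In fhod-1(tm2363) against wild type 3 of the 22 were called (13.6%), where 5.23% of all tested genes were. The 3 include slc-28.1, which passed the filter through its fhod-1(tm2363) libraries.

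**Figure D3:**
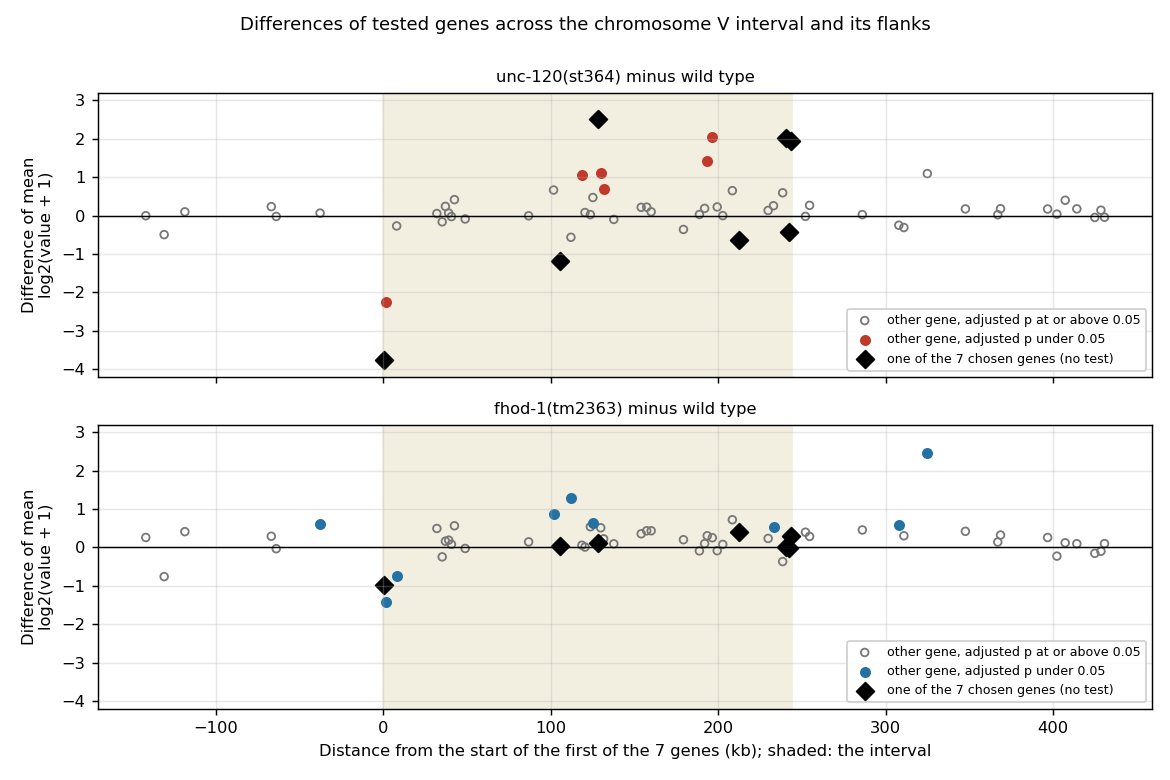
Difference of mean log2(value + 1) from wild type for each tested gene, by distance in kb from the start of C36C5.5, for unc-120(st364) (top) and fhod-1(tm2363) (bottom). In the top plot the 6 filled points, other genes with a limma adjusted p under 0.05, all lie within the shaded interval of 244.0 kb. They include T28A11.3, which passed the filter through its unc-120(st364) libraries alone. The flanks held 22 tested genes, too few for the absence of calls to mark an edge.

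At the left end of the interval, C36C5.12 (3158406 to 3159165, minus strand), the right-hand neighbour of C36C5.5, fell in both mutant strains. It was at 11.2, 8.57, 6.35 and 6.66 in wild type, at 1.28, 0.7496, 0.932 and 0.723 in the unc-120(st364) strain, and at 3.59, 2.41, 2.43 and 1.38 in the fhod-1(tm2363) strain. The 3 groups did not overlap one another. The log2 difference from wild type was -2.24 in the unc-120(st364) strain (SE 0.20, limma adjusted p = 1.34e-05) and -1.42 in the fhod-1(tm2363) strain (limma adjusted p = 8.67e-04). The difference between the mutants, -0.82, was not called (limma adjusted p = 0.0521), and its adjusted p ran from 0.00895 to 0.254 when the processing was varied. It was 0.00895 with the replicate number as a block, 0.0329 without wild type replicate 1 and 0.0173 without fhod-1(tm2363) replicate 4. The same order of groups, wild type above fhod-1(tm2363) above unc-120(st364), held for C36C5.5. C36C5.14, the next tested gene, was at 1.64 ± 0.453, 1.17 ± 0.239 and 0.574 ± 0.298 in wild type, unc-120(st364) and fhod-1(tm2363). It fell in the fhod-1(tm2363) strain (log2 difference -0.75, limma adjusted p = 0.0150), a call that was lost without wild type replicate 1 (limma adjusted p = 0.0503) or without fhod-1(tm2363) replicate 2 or 4 (limma adjusted p = 0.0656 or 0.0536).

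In the middle of the interval, the minus-strand genes F35F10.7 and F35F10.6 rose in the unc-120(st364) strain. F35F10.7 (3286432 to 3287460, minus strand), the right-hand neighbour of F35F10.5, went from 2.44 ± 0.499 to 6.34 ± 0.847 (SD, n = 4), a log2 difference of 1.10 (SE 0.15, limma adjusted p = 6.80e-04). In fhod-1(tm2363) it was at 3.90 ± 0.694 and was not called (limma adjusted p = 0.0566), nor was the difference between the mutants (limma adjusted p = 0.0575). Without wild type replicate 4 or fhod-1(tm2363) replicate 1 the latter was called, with a limma adjusted p of 0.0463 or 0.0445. F35F10.6 (3287995 to 3289385, minus strand) went from 5.96 ± 0.595 to 10.3 ± 1.37, a log2 difference of 0.70 (limma adjusted p = 0.0243). That call was lost in 8 of 22 alternatives. Without wild type replicate 2 or 3 the limma adjusted p was 0.109 or 0.0886, and without unc-120(st364) replicate 1 or 4 it was 0.0814 or 0.0545. T28A11.3 (3275333 to 3276110) was at 0.388 ± 0.190 in wild type, 1.86 ± 0.209 in the unc-120(st364) strain and 0.436 ± 0.0666 in the fhod-1(tm2363) strain. It reached 1 in all 4 unc-120(st364) libraries and in 0 of the other 8, so it entered the test through the group where it is high. Its log2 differences, 1.05 from wild type and 0.99 from fhod-1(tm2363), are given without a test.

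Between F35F10.5 and C04E12.2, the genes C17B7.12 and C17B7.15 rose. C17B7.12 (3353263 to 3353921) was at 1.51, 1.22, 1.90 and 1.23 in wild type, at 15.3, 7.04, 8.33 and 7.38 in the unc-120(st364) strain, and at 2.50, 2.01, 1.40 and 1.88 in the fhod-1(tm2363) strain. All 4 unc-120(st364) libraries were above all others, with replicate 1 the highest. The log2 difference was 2.04 from wild type (SE 0.20, limma adjusted p = 3.80e-05) and 1.78 from fhod-1(tm2363) (limma adjusted p = 1.36e-04). C17B7.15 (3350177 to 3350967) was at 3.06 ± 0.220, 9.96 ± 1.44 and 4.09 ± 0.993 in wild type, unc-120(st364) and fhod-1(tm2363). Its log2 difference was 1.42 from wild type (SE 0.15, limma adjusted p = 7.53e-05) and 1.12 from fhod-1(tm2363) (limma adjusted p = 8.59e-04). In unc-120(st364) the means of these genes were 6.49-fold and 3.25-fold those of wild type.

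**Figure D4:**
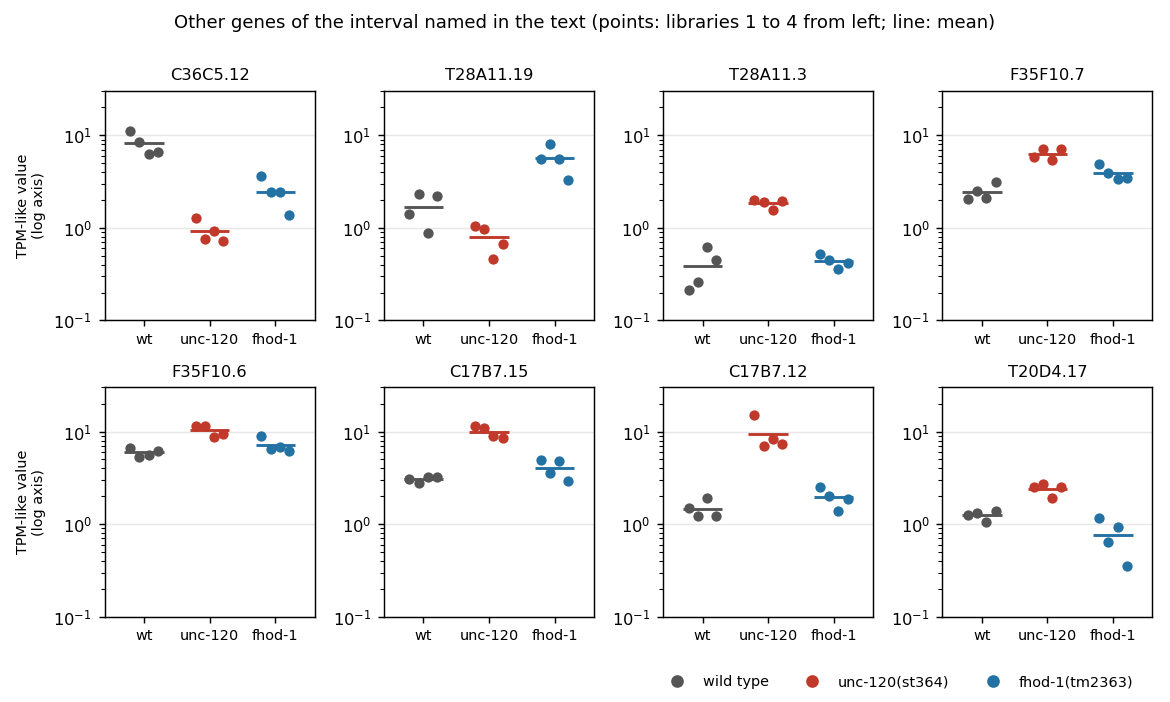
Values of 8 other genes of the interval in every library (TPM-like values, log axis, points for the 4 libraries of each group, line at the mean). C17B7.12, C17B7.15, F35F10.7, T20D4.17 and T28A11.3 have all 4 unc-120(st364) libraries above both other groups. C36C5.12 has wild type highest and T28A11.19 has fhod-1(tm2363) highest.

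Genes with known names in the same stretch did not pass the test in unc-120(st364) against wild type. They include lag-2, which encodes a ligand of the Notch receptors, at 0.822 ± 0.184 in wild type and 0.930 ± 0.475 in the unc-120(st364) strain, with a limma adjusted p of 1.00. The phospholipid scramblase gene scrm-3 was at 3.90 ± 0.542 and 4.76 ± 0.888 (limma adjusted p = 0.880). The F-box genes fbxa-64, at 12.7 ± 2.61 and 13.8 ± 4.62, and fbxa-65, at 15.7 ± 3.06 and 16.2 ± 4.14, had limma adjusted p-values of 1.00. T28A11.2, the most abundant gene of the interval in wild type, was at 69.6 ± 9.95 and 72.7 ± 21.3 (limma adjusted p = 1.00). These genes lie between genes whose unc-120(st364) libraries stand apart. They were picked after their values were seen, and the lack of a call does not show that a gene was unchanged. The level of lag-2 stayed under 1 in every wild-type library. The pseudogene arrd-21 was also not called (limma adjusted p = 0.503). Its unc-120(st364) libraries, at 1.12 to 1.45, lay above those of wild type, at 0.863 to 1.02.

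In fhod-1(tm2363) against wild type, limma called 6 of the same 33 genes, 4 higher and 2 lower, or 18.2% where 5.23% of all tested genes were called. C36C5.12 was called in both comparisons with wild type, which share the wild-type libraries. The count of 6 was 2 without fhod-1(tm2363) replicate 2, which left C36C5.12 and T28A11.19 with a call. The other 5 in the fhod-1(tm2363) strain were C36C5.14, T28A11.16, T28A11.19, T28A11.25 and arrd-21. T28A11.16 was at 16.9 ± 1.84 in wild type, 27.96 ± 7.18 in the unc-120(st364) strain and 32.06 ± 4.60 in the fhod-1(tm2363) strain, with a log2 difference of 0.88 in the fhod-1(tm2363) strain (limma adjusted p = 0.0122). T28A11.19 was highest in the fhod-1(tm2363) strain, at 5.62 ± 1.95 against 1.69 ± 0.673 in wild type and 0.793 ± 0.275 in the unc-120(st364) strain. Its log2 difference was 1.29 between fhod-1(tm2363) and wild type (limma adjusted p = 0.00427) and -1.85 between unc-120(st364) and fhod-1(tm2363) (limma adjusted p = 2.26e-04). Among the 23 genes at 1 or more in every wild-type library, 2 were called in the fhod-1(tm2363) strain (8.70%), against 4.41% of all genes under that condition.

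Compared directly, the mutant strains differed in 5 of the 33 genes (15.2%, against 1.97% of all tested genes), 4 of them higher in the unc-120(st364) strain. The 4 were C17B7.12, C17B7.15, T28A11.3 and T20D4.17, and T28A11.19 was lower. T28A11.3 is counted here although it passed the filter through its unc-120(st364) libraries alone. Among the 23 genes at 1 or more in every wild-type library, which leaves out T28A11.3 and T28A11.19, 3 were called, against 1.66% of all genes under that condition. With the filter of at least 10 in 4 libraries the count of 5 was 0 (1 of 8 at an unadjusted p under 0.05). None of the 5 passed that filter, so they were not tested again there. T20D4.17 (3395275 to 3395966, minus strand), a pseudogene and the left-hand neighbour of T20D4.12, was at 1.25 ± 0.145 in wild type, 2.41 ± 0.344 in the unc-120(st364) strain and 0.772 ± 0.356 in the fhod-1(tm2363) strain. Its log2 difference was 0.96 between the mutants (limma adjusted p = 0.00140) and 0.60 from wild type, which was not called (limma adjusted p = 0.0602). That difference from wild type was called without fhod-1(tm2363) replicate 1 or 4 (limma adjusted p = 0.0399 or 0.0307). On the right flank, the level of the lysozyme gene lys-7 was 20.1 ± 7.71 in wild-type libraries, 43.3 ± 12.8 in those of unc-120(st364) and 109.9 ± 12.3 in those of fhod-1(tm2363). It rose in fhod-1(tm2363) against wild type (log2 difference 2.46, limma adjusted p = 5.34e-05). Between the mutants its log2 difference was -1.37 (limma adjusted p = 0.00877), with unc-120(st364) between the other groups. The nucleoside transporter family gene slc-28.1 was at 0.956 ± 0.232, 0.637 ± 0.0657 and 1.97 ± 0.562 in the same order. It reached 1 in all 4 fhod-1(tm2363) libraries, in 1 of wild type and in 0 of unc-120(st364), so its filter rested on the group where it is high and no test is given.

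Of the 39 other genes that carry the clone names C36C5, T28A11, F35F10, C04E12 or T20D4, 15 passed the filter. Limma called 4 of them in unc-120(st364) against wild type (26.7%), 3 higher and 1 lower, where 1.20% of all tested genes were called. These 4, all among the 6 genes above, include T28A11.3, which passed the filter through its unc-120(st364) libraries alone. In fhod-1(tm2363) against wild type 5 of the 15 were called (33.3%), 3 higher and 2 lower, where the share over all tested genes was 5.23%. The gene to the left of C36C5.5, the chemoreceptor gene srab-7, did not exceed 0.133 in any library. To the right of T20D4.10, the pseudogene T20D4.20 did not exceed 0.680. T28A11.17, to the right of T28A11.6, was at 0.275 ± 0.0230 in wild type and 0.142 ± 0.0388 in the unc-120(st364) strain, below the filter. C04E12.4, to the left of C04E12.2, was at 3.75 ± 1.68, 6.21 ± 1.78 and 6.49 ± 1.33 in wild type, unc-120(st364) and fhod-1(tm2363), and was not called in the unc-120(st364) strain (limma adjusted p = 0.443).

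The chromosomes were cut into 414 windows of the length of the interval, of which it is 1, and the genes with an adjusted p under 0.05 were counted with the 7 chosen genes left out. In unc-120(st364) against wild type the interval held 6, the median window held 0, and 2 other windows held as many or more. Both lie to the left on chromosome V. The window from 732 to 488 kb before the interval held 10 of 21 tested genes, and the window from 976 to 732 kb before it held 8 of 38. In fhod-1(tm2363) against wild type those windows held 10 and 13 and the interval held 6, and between the mutants they held 1 and 2 and the interval 5. The 7 genes, chosen on these values, set the edges of the interval. Nothing is therefore read from its rank among the windows. T28A11.3, which passed the filter through its unc-120(st364) libraries alone, is among its 6 and its 5. That count of 5 between the mutants was reached by 1 other window of the genome. These counts describe the windows and carry no test.

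**Figure D5:**
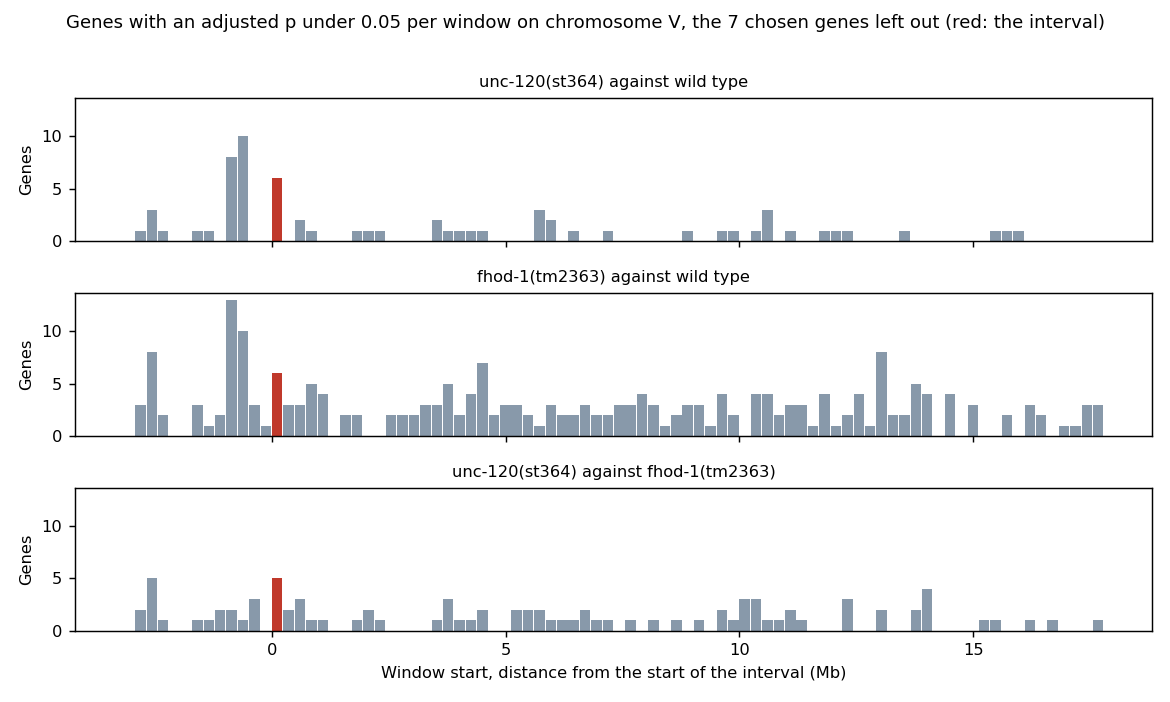
Number of genes with a limma adjusted p under 0.05 in each window of the interval's length on chromosome V, by distance in Mb from the start of the interval, with the 7 chosen genes left out. In unc-120(st364) against wild type the interval (red) holds 6 genes and the highest windows, to its left, hold 10 and 8, and between the mutants those hold 1 and 2 and the interval 5. The interval's 6 and 5 include T28A11.3, and its place was set by the 7 chosen genes.

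For each of the 7, the most alike genes over the 12 libraries were looked up among all tested genes outside the 7. The measure was the Pearson correlation of log2 values. Among the 7 themselves, T20D4.10 and T20D4.12 had 0.99 with each other, and F35F10.5 had 0.96 with both. For the genes higher in the unc-120(st364) strain the genes found outside the 7 came mostly from the interval itself. C17B7.12 was most like F35F10.5 (r = 0.984), C17B7.15 was most like T20D4.12 (r = 0.943) and T20D4.10 (r = 0.956), and F35F10.6 came next for T20D4.10 (r = 0.948). C17B7.12 came next for T20D4.12 (r = 0.932). The exception was T02H6.6 on chromosome II (r = 0.977 with F35F10.5), which is listed at 0 in all 4 wild-type libraries and was at 1.36 ± 0.439 in the unc-120(st364) strain. In the fhod-1(tm2363) strain it was at 0.045 ± 0.090. It thus passed the filter through its unc-120(st364) libraries alone, and nothing is read from its correlation.

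For the genes lower in the unc-120(st364) strain the most alike genes lay elsewhere. For C36C5.5 they were ppt-1 (r = 0.974), which encodes a palmitoyl-protein thioesterase, and Y19D10B.6 (r = 0.970), both on chromosome V outside the interval. The level of ppt-1 (6624702 to 6626344) was 6.30 ± 1.23 in wild type, 0.871 ± 0.201 in the unc-120(st364) strain and 5.39 ± 0.618 in the fhod-1(tm2363) strain. Y19D10B.6 (2318525 to 2321052) was at 3.63 ± 0.676, 0.391 ± 0.0436 and 2.08 ± 0.436. For C04E12.2 they were F41G4.8 on chromosome X (r = 0.969) and C25E10.10 on chromosome V (r = 0.962), and C25E10.10 was at 6.10 ± 0.390, 1.78 ± 0.227 and 9.40 ± 0.809. For T28A11.6 they were W04G3.12 on chromosome X (r = 0.922) and Y71H2B.4 on chromosome III (r = 0.920). For T20D4.11, which is not among the 3 lower genes because its groups overlapped, they were C34F6.11 on chromosome X (r = 0.962) and R10E4.9 on chromosome III (r = 0.939). All these correlations are over the same 12 libraries, in which the groups differ, and were picked as the highest of many.

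Markers of body-wall muscle, intestine, hypodermis, germline, neurons and the molting cycle were looked at beside these differences. Of the 60 marker genes 57 passed the filter, and limma called 0 of them in any of the 3 comparisons. Over all tested genes 1.20% were called in unc-120(st364) against wild type, 5.23% in fhod-1(tm2363) and 1.97% between the mutants. With 57 genes, 0 calls are not read as a lack of difference. In unc-120(st364) against wild type 8 had an unadjusted p under 0.05, as had 1052 of the 12831 tested genes. There the log2 differences of the 10 body-wall muscle markers ran from -1.09 to -0.27, and those of the 10 neuron markers from 0.18 to 0.51. The summed level of the 10 body-wall muscle markers ran from 2555 to 2828 in the unc-120(st364) strain, below its range of 3152 to 4017 in wild type and of 3158 to 3742 in the fhod-1(tm2363) strain. The sums of the other lists in the unc-120(st364) strain overlapped those of wild type, and in the fhod-1(tm2363) strain the neuron sum, 420.5 to 575.6, lay above its wild-type range of 338.9 to 363.9. No marker was listed at 0 throughout. The part of body-wall muscle in the differences of the 7 genes was not tested. In RNA from whole larvae, fewer cells of a type and less RNA per cell cannot be told apart.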

How the data were processed

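The authors deposited 1 table, named as normalized counts, in which the 12 libraries are columns with equal totals. Values multiplied by exonic length lay within 0.1 of a whole multiple of 1 step per library for 32.0% to 37.6% of low values, and values alone for 22.2% to 23.3%, where chance gives 20.0%. On this ground the values the authors deposited are taken to be TPM multiplied by a constant, which is an inference. Bowtie2 2.2.5, Partek and the build WBcel235 are named, per the submitters' processing notes, with no role. The counting and its use of strand are not given in the sources used here. Deposited stop positions were 1 base past the gene end of the Ensembl annotation for 55.6% of the matched genes and equal to it for 1.21%, so 1 was subtracted from every stop. Positions follow the deposited table and can differ from that annotation.

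Genes at 1 or more in at least 4 libraries were analysed as log2(value + 1) with limma 3.58.1 (1 mean per group, all 12 libraries, trended eBayes), run in R 4.3.3. Calls are genes whose p, adjusted over all 12831 genes by Benjamini-Hochberg, was under 0.05. The procedure was checked on simulated data. Python 3.11.15 was used for tables and plots.

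The 7 genes, the lists and the tests were chosen with earlier results of these data known. The named genes were the 7, their immediate neighbours, and for each of the 7 the 2 most alike genes outside the 7. At most 20 other genes of the interval, its flanks of 200 kb and the same clones were also named. Those were called in unc-120(st364) against wild type or against fhod-1(tm2363), or changed at least 2-fold without overlap. The well-known genes lag-2, scrm-3, fbxa-64 and fbxa-65, the abundant T28A11.2 and the genes called in fhod-1(tm2363) were added after their values were seen, as were the windows and the condition on wild-type libraries. A list of sequence relatives was planned and not run, since no protein sequences were used here.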

Additional observations from a re-analysis of the deposited data

Results flagged for a closer look

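In 2 of the 51 groups of 4 libraries examined for the 7 genes and the named others, 1 library stood far from the rest, where chance gives about 1 in 20. F35F10.5 was at 31.7 in unc-120(st364) replicate 1 and at 18.3 to 18.99 in the other 3 libraries. C17B7.12 was at 15.3 in the same library and at 7.04 to 8.33 in the others. Without that library both genes were still higher in unc-120(st364) than in wild type.

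The difference itself between the 2 mutant strains was flagged, at a limma adjusted p under 0.05, for 7 genes that were not among the chosen ones. The flag is not used as a test for T28A11.3 and slc-28.1. Differences are on the log2 scale as unc-120(st364) minus fhod-1(tm2363). It was 1.78 for C17B7.12 (adjusted p = 1.36e-04), 1.12 for C17B7.15 (adjusted p = 8.59e-04) and 0.96 for T20D4.17 (adjusted p = 0.00140). It was -1.85 for T28A11.19 (adjusted p = 2.26e-04), and on the right flank -1.37 for lys-7 (adjusted p = 0.00877), which rose in fhod-1(tm2363) against wild type. It was 0.99 for T28A11.3 and -0.84 for slc-28.1, which passed the filter on low values through the group where they are high, so their difference is given without a test. In each of the 7 genes the libraries of the 2 strains did not overlap, as in 8.24% of all tested genes. The 7 were picked as differing, so nothing is read from that.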

How the results depend on the processing

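Over 19 alternatives each, the 14 log2 differences of the 7 genes from wild type moved by less than the spread between libraries in 261 of 266 values. The other 5, all with a pseudocount of 10, were smaller and kept their sign. Correction for gene length left C36C5.5 at -3.77 and F35F10.5 at 2.51. The other genes of the interval called in unc-120(st364) numbered 4 to 8 in place of 6, except with a value of at least 10 in 4 libraries, where 8 were tested and limma called 0 (1 at an unadjusted p under 0.05). None of the 6 passed that filter. In fhod-1(tm2363) against wild type, 6 became 1 under that filter, 10 with every gene above 0 tested and 1 without replicate 1 of all groups. Between the mutants, 5 became 0 under that filter (1 at an unadjusted p under 0.05), which none of the 5 passed. The 5 became 9 with every gene above 0 and 9 after length correction. Leaving out each library in turn gave 4 to 7, 2 to 8 and 4 to 6 in these comparisons, the 2 without fhod-1(tm2363) replicate 2. The lys-7 difference between unc-120(st364) and wild type was called in 5 alternatives, with an adjusted p of 0.00876 under the replicate block.

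Over all genes, limma called 154 between unc-120(st364) and wild type, 671 between fhod-1(tm2363) and wild type, and 253 between the mutants. These were 43, 217 and 85 under that stricter filter, where fewer genes were tested, 345, 2239 and 660 after length correction, and 88, 252 and 128 with replicate 1 of every group left out, which was chosen after seeing the data. The cause of the rise after length correction was not tested. Leaving out each library in turn gave 105 to 164, 224 to 982 and 138 to 292. The count of 671 fell to 344, 323 and 301 without wild type replicate 1, 2 or 3 and to 224, 335 and 312 without fhod-1(tm2363) replicate 2, 3 or 4, and the count of 253 to 138 without fhod-1(tm2363) replicate 2. The 495 higher and 176 lower genes in fhod-1(tm2363) became 358 and 305 with upper-quartile scaling and 319 and 310 with quantile normalization, and the 59 and 194 between the mutants became 83 and 160, and 94 and 168.

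The replicate numbers as a whole were not shown to pair the libraries. Deviations of same-numbered libraries had correlations of -0.651 to 0.806, over 0.1 in 5 of 12 pairs. In both other groups, 3 of 12 libraries were closest to their own number. These were replicate 1 of each group, with correlations of 0.467, 0.585 and 0.61 between them. With the replicate number as a block the counts were 188, 947 and 311, and 6 in the interval. Depth is unknown and limits what can be said of genes below 1.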
